A study of Mus musculus with 6 samples.

Results

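The genes described here encode the machinery that sorts membrane proteins at endosomes, namely the ESCRT complexes, the retromer with its sorting nexins, and the WASH complex. They were taken as the rows whose symbol equalled 1 of 42 names, listed by the complex each gene belongs to and with no threshold on a measured value. Of these 42 genes, 41 had a row among the 26898 genes of the table, and 40 passed the filter on low expression, which kept the 14799 genes whose WT or KO mean reached 1 TPM. TPM, a measure of transcript abundance, divides the reads of a gene by its length and scales each sample to the same total. Hgs, the ubiquitin-binding partner of Stam, was not analysed here, and Vps25 lay under the filter.

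RNA was sequenced from primary mouse embryonic fibroblasts (MEFs) of C57BL/6 background at passage 3. These are cells of connective tissue grown out of embryos. The WT group (samples 4, 5 and 8) carried the conditional Kansl1 fl/fl alleles without Cre. The KO group (samples 3, 7 and 10) carried the same alleles and CAG-cre, a tamoxifen-inducible Cre recombinase under a ubiquitous promoter. Cells of both groups were exposed to tamoxifen at 1 μM for 48 h. The labels give 10% serum in the medium, and the methods of the study state a larger percentage for its MEFs. Each group therefore held 3 samples, which the study describes as separate mice, and p-values measure the spread between these samples. Cre-positive cells with intact Kansl1 were not analysed here, so loss of Kansl1 and presence of Cre cannot be told apart.

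Proteins marked with ubiquitin are collected on endosomes by ESCRT-0 and passed to ESCRT-I and ESCRT-II. ESCRT-III then polymerises into filaments that bud vesicles into the endosome lumen, and the ATPase VPS4 takes these filaments apart. The same filaments act in cytokinesis, in repair of membranes and the nuclear envelope, and in closure of autophagosomes. Retromer and the sorting nexins work in the opposite sense, since they return receptors from endosomes to the Golgi or the cell surface, with WASH building the actin patches where cargo is gathered.

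Kansl1, a subunit of the NSL histone acetyltransferase complex (chr11:104333229-104468861, minus strand, mm10), was measured at 28.5, 26.7 and 24.4 TPM in WT 4, 5 and 8. In KO 3, 7 and 10 it was 13.7, 15.8 and 14.4 TPM. Its level fell in every KO sample to a mean of 55.1% of WT (log2 fold change -0.82, SE 0.11, adjusted p = 0.000859, limma). This gene-level value does not separate the deleted part of the gene from the rest.

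The samples held between 17655495 (KO 3) and 27718259 (KO 7) reads assigned to genes. A single RNA, Gm23935, took 15.5% to 25.6% of TPM per sample, with no separation between groups. The summed level of 12 fibroblast markers ranged from 10333.9 to 14921.0 TPM in WT and from 11076.5 to 14538.2 TPM in KO, and 0 of the 11 tested changed. The summed level of 13 macrophage markers ranged from 47.2 to 56.8 TPM in WT and from 99.5 to 194.3 TPM in KO. Among 11 tested, C1qc and Lyz2 were higher at an adjusted p under 0.005 (limma) and a log2 fold change above 0.5. Over all tested genes 1.64% were. At an adjusted p under 0.05 and the same fold, Adgre1, Csf1r, Cd68, Tyrobp, Fcer1g, C1qa, C1qb and Mrc1 were higher too, and Cd14 was not. Over all tested genes 4.69% passed this looser setting. The endothelial and muscle lists overlapped between groups, at 2.76 to 7.08 and 4.18 to 5.95 TPM and at 360.1 to 445.8 and 324.6 to 404.5 TPM in WT and KO. The neural list overlapped as well (187.0 to 238.6 against 217.1 to 273.2 TPM), whereas the epithelial list ran from 72.4 to 81.5 TPM in WT and from 84.5 to 107.0 TPM in KO. No marker of these lists was at 0 in all samples. The part of the macrophage and epithelial markers in the values that follow was not tested. In bulk RNA, fewer cells of a type and less RNA per cell cannot be told apart.

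Most genes of endosomal sorting kept levels in KO MEFs within 0.5 log2 units of WT, and 4 were called lower. These were Vps28 and Mvb12b of ESCRT-I, Snf8 of ESCRT-II, and Vta1, the cofactor of VPS4. A gene was called at a Benjamini-Hochberg adjusted p-value under 0.005 from limma with a log2 fold change beyond 0.5 in size, which are thresholds the study used with another tool. The 4 lower calls are 10% of the 40 tested members, beside 9.03% of all tested genes. There were 0 higher calls among the members, beside 1.64% of all tested genes. At an unadjusted p-value under 0.05 from limma, 13 of the 40 members had a fold change below 0, beside 27.2% of all tested genes, and 7 had one above 0, beside 12.2%.

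With an adjusted p-value under 0.05 and the same fold, Chmp1b and Chmp2b of ESCRT-III joined the lower genes. This made 6 of 40 (15%), beside 16.6% of all tested genes, and 0 higher, beside 4.69%. At any fold, 12 of 40 members passed an adjusted p of 0.05, beside 27.8% of all tested genes. The 3 KO samples all lay below the 3 WT samples in 14 members (35%, beside 29.9% of all tested genes) and all above in 9 (22.5%, beside 13.3%), and the groups overlapped in 17. The median log2 fold change was -0.08 over the members and -0.07 over all tested genes. With samples rescaled by the median of gene ratios the members' median was 0.01, and with voom on recovered reads it was 0.03, and the median over all tested genes was 0.01 and 0.03 in the same fits.

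Of the 4 calls, Vps28 alone was made in every one of the 6 fits that left out a sample. Without WT 5 it was the single call, without WT 4, WT 8, KO 3 or KO 10 the calls were Vps28 and Snf8, and without KO 7 all 4 were made. When all 26898 genes were tested with no filter, Vps28 was again the single call.

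**Figure D1:**
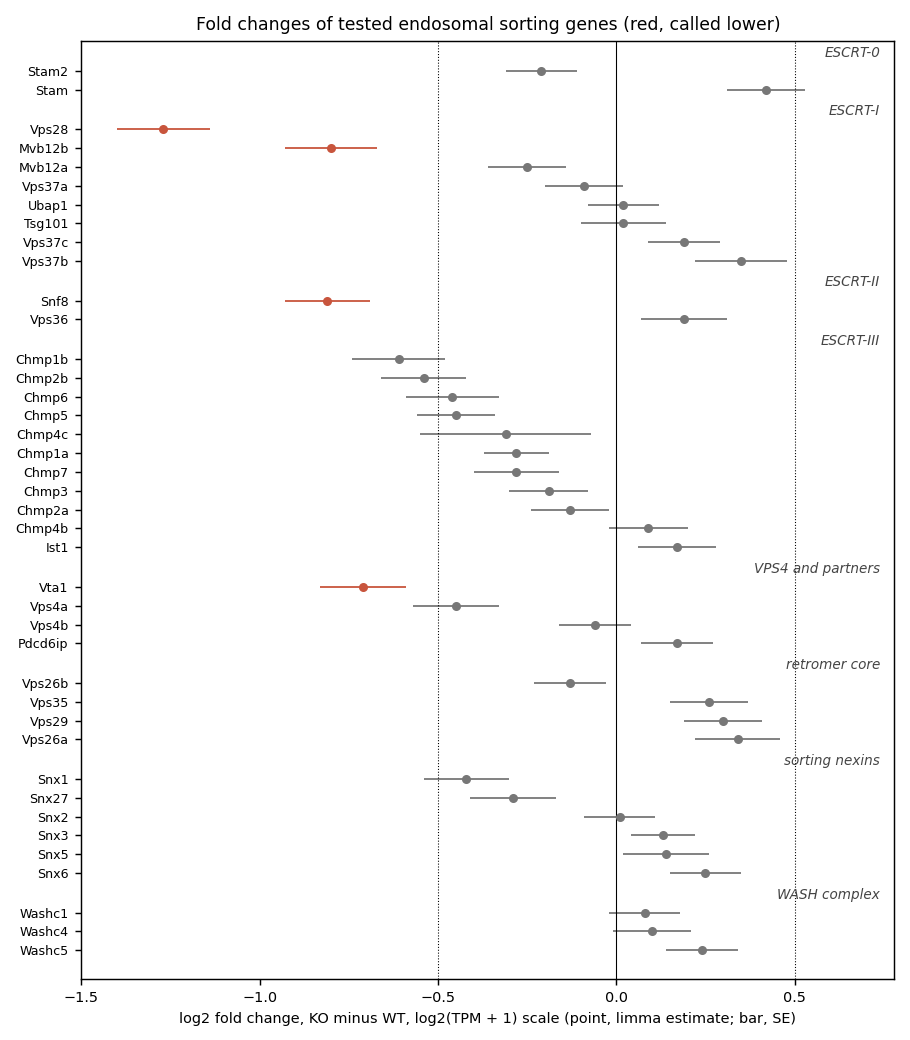
Log2 fold change of KO over WT on the log2(TPM + 1) scale for the 40 tested genes, ordered within each complex. Points are limma estimates, bars are SE, dotted lines mark the fold threshold of 0.5, and red marks the 4 genes called lower, which run from -0.71 (Vta1) to -1.27 (Vps28).

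In ESCRT-0, the complex that first binds ubiquitinated cargo, the paralogs Stam and Stam2 lay on opposite sides of 0. Stam was measured at 26.1, 23.8 and 21.2 TPM in WT 4, 5 and 8 and at 31.7, 32.5 and 31.6 TPM in KO 3, 7 and 10. All KO values lay above all WT values, and its log2 fold change of 0.42 (SE 0.11, adjusted p = 0.0175, limma) was the highest of the 40 members but inside the fold threshold. It passed the thresholds with median-of-ratios scaling (0.505, adjusted p = 0.00241) and with voom on recovered reads (0.536, adjusted p = 0.000441), where 2.99% and 4.34% of all tested genes were called higher. Stam2 was at 34.4, 32.4 and 29.4 TPM in WT and 26.6, 29.0 and 27.1 TPM in KO. Its KO values were all below WT, with a log2 fold change of -0.21 that missed the threshold (adjusted p = 0.166). The share of Stam2 in the summed TPM of the pair was 57.5% ± 0.605 in WT and 46.3% ± 0.739 in KO (SD, n = 3). By TPM, Stam2 was thus the higher paralog in each WT sample and Stam in each KO sample. This order depends on the gene lengths used, since by reads Stam was higher in every sample. In WT 4, 5 and 8 Stam had 1776, 1750 and 1688 reads, against 1676, 1707 and 1672 for Stam2.

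ESCRT-I links ESCRT-0 to the later complexes and is built from Tsg101, Vps28, 1 of several Vps37 paralogs, and either an Mvb12 protein or Ubap1. Vps28, whose end contacts ESCRT-II (chr15:76622087-76626086, minus strand), had the lowest fold change of all members. It was measured at 18.9, 21.1 and 18.1 TPM in WT and at 6.44, 8.65 and 7.34 TPM in KO. The lowest WT value was above the highest KO value by more than the whole range of either group, and the KO mean was 38.6% of WT (log2 fold change -1.27, SE 0.13, adjusted p = 0.000303, limma). These values rest on 352, 427 and 395 reads in WT and 108, 193 and 151 reads in KO. Vps28 shares 85 of its 2304 exon bases with Tonsl, a gene on the same strand, and how reads from those bases were counted was not stated.

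Tsg101, the ubiquitin-binding core of the complex, was at 89.8, 83.4 and 68.7 TPM in WT and 74.7, 87.0 and 82.5 TPM in KO. The groups overlapped (log2 fold change 0.02, SE 0.12, adjusted p = 0.922), and the sign of this value turned when WT 8 or KO 7 was left out. The ratio of Tsg101 to Vps28 was 4.76, 3.95 and 3.80 in WT and 11.6, 10.1 and 11.2 in KO. This ratio of complex partners, chosen after the values had been seen, differed by 1.40 log2 units between the groups, and an exact two-sided permutation test gave p = 0.1, the smallest that 3 against 3 samples allow.

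Mvb12b, a ubiquitin-binding subunit that regulates ESCRT-I (chr2:33729953-33887946, minus strand), also fell. It was at 13.6, 12.9 and 11.8 TPM in WT and 5.80, 7.75 and 7.28 TPM in KO, without overlap (log2 fold change -0.80, SE 0.13, adjusted p = 0.00229, limma). Its paralog Mvb12a was at 23.0, 25.8 and 23.0 TPM in WT and 18.7, 22.2 and 19.1 TPM in KO, also without overlap, but its log2 fold change of -0.25 did not pass the test (adjusted p = 0.127). Mvb12b made up 34.8% ± 2.15 of the summed TPM of both genes in WT and 25.7% ± 1.95 in KO (SD, n = 3). Ubap1, which takes the place of the Mvb12 proteins, had overlapping groups with means of 41.5 ± 3.72 TPM in WT and 41.9 ± 2.20 TPM in KO (log2 fold change 0.02, adjusted p = 0.927), and its sign turned without WT 8 or without KO 7.

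Among the Vps37 paralogs, which are alternative subunits of the same place in the complex, Vps37b was at 11.5, 11.2 and 9.49 TPM in WT and 12.4, 15.4 and 13.9 TPM in KO. It lay higher in every KO sample but missed the threshold (log2 fold change 0.35, SE 0.13, adjusted p = 0.0679, limma). Exons of Vps37b share 918 bases with Hip1r on the opposite strand, and use of strand in the counting was not stated. Vps37c was also higher in every KO sample (26.7 ± 2.34 TPM in WT, 30.6 ± 1.17 TPM in KO, log2 fold change 0.19, adjusted p = 0.201). Vps37a, the member best known for work in autophagosome closure, had overlapping values of 25.2 ± 1.62 and 23.5 ± 2.18 TPM, with a log2 fold change of -0.09 that became 0.007 with voom.

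The start regions of the Mvb12 paralogs are shown because Mvb12b was called lower and Mvb12a, also lower in every KO sample, was not. The exact test of their ratio could not pass 0.05 (p = 0.1), so a difference between them was not shown. They come from RefSeq on GRCm38.p6 and are written 5′ to 3′ on the strand of each gene, from 250 bases before the RefSeq start up to the first base of the annotated gene. Capitals mark matches on either strand to the motifs searched, which were the E-box CACGTG, the CLEAR element GTCACGTG (which contains the E-box), NRF1 GCATGCGC, ETS CCGGAAGT, the CCAAT box and the GC box GGGCGG.
Mvb12a: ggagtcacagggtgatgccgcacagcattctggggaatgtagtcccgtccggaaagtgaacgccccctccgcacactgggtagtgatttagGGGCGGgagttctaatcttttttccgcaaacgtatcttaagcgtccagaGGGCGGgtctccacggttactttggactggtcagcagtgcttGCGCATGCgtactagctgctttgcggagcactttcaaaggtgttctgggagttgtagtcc
Mvb12b: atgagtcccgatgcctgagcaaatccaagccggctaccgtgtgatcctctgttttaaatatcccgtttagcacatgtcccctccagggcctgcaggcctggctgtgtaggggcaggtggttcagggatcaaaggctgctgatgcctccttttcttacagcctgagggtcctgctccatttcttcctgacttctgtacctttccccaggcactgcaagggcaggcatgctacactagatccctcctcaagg
The Mvb12a stretch (chr8:71542680-71542921, plus strand) held 2 GC boxes and 1 NRF1 match among its 242 bases, with 14 CpG. The Mvb12b stretch (chr2:33887947-33888196, minus strand) held none of the 6 motifs in 250 bases, with 4 CpG. Across all 32851 windows of 250 bases in the RefSeq table, 32.7% held a GC box and 2.26% an NRF1 match. A match is a run of letters and is not evidence that a factor binds.

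ESCRT-II receives cargo from ESCRT-I and starts ESCRT-III assembly. Snf8, a subunit of its core (chr11:96034885-96047430, plus strand), was at 28.4, 31.1 and 27.8 TPM in WT and 14.0, 18.2 and 16.7 TPM in KO. It fell to 55.8% of the WT mean, with no overlap (log2 fold change -0.81, SE 0.12, adjusted p = 0.00138, limma). Vps36, the subunit that binds ubiquitin and endosomal phosphoinositide, was at 52.2, 45.9 and 39.5 TPM in WT and 50.8, 54.1 and 51.6 TPM in KO. Here the groups overlapped through WT 4 (log2 fold change 0.19, adjusted p = 0.257), and the ratio of Vps36 to Snf8 went from 1.84, 1.47 and 1.42 in WT to 3.64, 2.98 and 3.10 in KO (exact two-sided permutation p = 0.1, a ratio also chosen after its values were seen).

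Vps25, which docks the ESCRT-III subunit Chmp6 onto ESCRT-II, was under the filter, at 0.225, 0.417 and 0.321 TPM in WT and 0.335, 0.754 and 0.273 TPM in KO. These values rest on 3 to 12 reads a sample and the groups overlapped. The Vps25 model shares 1103 of its 1642 exon bases with Ramp2 on the same strand, and how reads from shared bases were counted was not stated. Hgs has a comparable arrangement in the annotation, with 2897 of 2980 exon bases shared by a second gene model on the same strand.

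In ESCRT-III, whose subunits polymerise at the neck of the budding vesicle, 9 of 11 members had a fold change below 0, beside 57.4% of all tested genes, and 0 were called. The 3 KO samples lay below the 3 WT samples in 6 members (54.5%, beside 29.9% of all tested genes) and above in 0, and the median log2 fold change was -0.28 (-0.20 with median-of-ratios scaling and with voom). The sign of each of the 11 members was the same under both scalings. All 11 belong to 1 pathway and were measured in the same 6 samples, so they are not independent.

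The lowest fold changes were those of Chmp1b and Chmp2b. Chmp1b (chromosome 18), which recruits the microtubule-severing ATPase spastin and helps shape late filaments, was at 28.0, 21.2 and 20.6 TPM in WT and 15.1, 14.9 and 14.3 TPM in KO (log2 fold change -0.61, SE 0.13, adjusted p = 0.00808, limma). Chmp2b (chr16:65539128-65562726, minus strand), a late-acting subunit mutated in a form of frontotemporal dementia, was at 92.7, 77.5 and 70.8 TPM in WT and 53.0, 57.6 and 53.9 TPM in KO (log2 fold change -0.54, SE 0.12, adjusted p = 0.00822). Both sets of values were separated, with WT 4 the highest sample in each, and both genes were past the fold but short of the adjusted p of 0.005. Without WT 4 both lay inside the fold threshold, at -0.472 and -0.429 for Chmp1b and Chmp2b. Chmp2b did so too with median-of-ratios scaling (-0.448) and with voom (-0.444). Chmp1b shares 605 exon bases with an antisense transcript.

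Chmp5, which binds Vta1, was at 120.8, 111.6 and 101.5 TPM in WT and 79.1, 88.0 and 75.9 TPM in KO (log2 fold change -0.45, SE 0.11, adjusted p = 0.0115). Chmp6, the subunit that nucleates the filament from ESCRT-II, was at 27.9, 26.6 and 26.2 TPM in WT and 16.0, 22.4 and 19.9 TPM in KO (log2 fold change -0.46, SE 0.13, adjusted p = 0.0269). Both were lower in every KO sample while staying inside the fold threshold. Chmp1a, the paralog of Chmp1b, had means of 70.2 ± 2.52 TPM in WT and 57.7 ± 1.90 TPM in KO (log2 fold change -0.28, adjusted p = 0.0455), and Chmp7, which brings ESCRT-III to the nuclear envelope, had 22.1 ± 2.47 and 17.9 ± 1.19 TPM (-0.28, adjusted p = 0.0986), also without overlap.

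Chmp4b, the main filament-forming subunit, had the highest level of ESCRT-III per length. It was at 151.5, 185.7 and 159.5 TPM in WT and 169.4, 189.8 and 168.8 TPM in KO, and the groups overlapped (log2 fold change 0.09, SE 0.11, adjusted p = 0.562). Its paralog Chmp4c, the subunit of the abscission checkpoint in cytokinesis, was the least expressed tested member, at 2.50, 1.18 and 0.962 TPM in WT and 0.859, 1.03 and 1.07 TPM in KO. Its groups overlapped, and WT 4 stood above the other samples. Chmp2a, Chmp3 and Ist1 overlapped as well, with log2 fold changes of -0.13, -0.19 and 0.17 and adjusted p of 0.41, 0.23 and 0.273. The summed TPM of the 11 genes was 716.9, 702.5 and 640.4 in WT and 561.7, 641.2 and 584.1 in KO, where KO 7 reached just above WT 8.

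**Figure D2:**
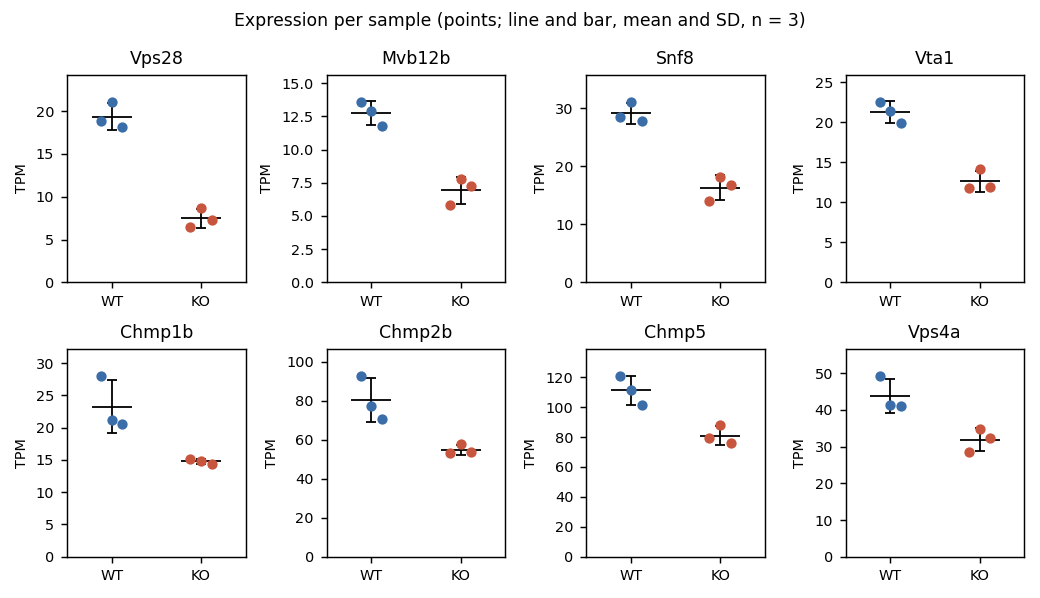
TPM of 8 members in each sample, with WT in blue and KO in red. Points are samples, horizontal lines are group means and bars are SD (n = 3); in each panel the 3 KO samples sit below the 3 WT samples, and for Vps28 they lie between 6.44 and 8.65 against 18.1 to 21.1 TPM.

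VPS4 disassembles ESCRT-III, and Vta1 (also known as LIP5) promotes assembly and activity of the ATPase. Vta1 (chr10:14654755-14705560, minus strand) was at 22.6, 21.4 and 19.9 TPM in WT and 11.8, 14.2 and 11.9 TPM in KO. It fell to 59.5% of the WT mean with no overlap (log2 fold change -0.71, SE 0.12, adjusted p = 0.00207, limma). It shares 306 of 2263 exon bases with the antisense gene Gm16234. Of the ATPases, Vps4a was at 49.2, 41.3 and 40.9 TPM in WT and 28.5, 34.7 and 32.4 TPM in KO, lower in every KO sample but inside the fold threshold (log2 fold change -0.45, SE 0.12, adjusted p = 0.0201). Vps4b was at 27.4, 26.6 and 24.5 TPM in WT and 23.3, 26.0 and 26.0 TPM in KO and overlapped (log2 fold change -0.06, adjusted p = 0.712), with a sign that turned to 0.03 and 0.04 under the scalings by median of ratios and by voom. Vps4b made up 37.5% ± 1.68 of the summed TPM of both ATPase genes in WT and 44.1% ± 1.19 in KO (SD, n = 3).

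Pdcd6ip (ALIX), an adaptor that connects cargo and ESCRT-I to Chmp4 proteins, was at 143.4, 133.3 and 125.3 TPM in WT and 142.1, 158.5 and 150.9 TPM in KO. The groups overlapped through WT 4 and KO 3 (log2 fold change 0.17, SE 0.10, adjusted p = 0.23). The start regions of both ATPase genes and of Vta1 are shown in the same way, because Vps4a lay lower in KO and Vps4b overlapped.
Vps4a: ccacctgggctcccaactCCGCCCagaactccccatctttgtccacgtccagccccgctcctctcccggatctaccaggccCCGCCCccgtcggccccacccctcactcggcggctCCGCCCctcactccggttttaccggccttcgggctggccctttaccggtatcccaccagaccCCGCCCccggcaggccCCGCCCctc
Vps4b: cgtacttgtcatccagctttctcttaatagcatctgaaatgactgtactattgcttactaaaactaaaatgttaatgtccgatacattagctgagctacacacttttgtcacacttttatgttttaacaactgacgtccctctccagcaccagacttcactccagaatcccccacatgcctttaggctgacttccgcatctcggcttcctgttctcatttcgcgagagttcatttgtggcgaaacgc
Vta1: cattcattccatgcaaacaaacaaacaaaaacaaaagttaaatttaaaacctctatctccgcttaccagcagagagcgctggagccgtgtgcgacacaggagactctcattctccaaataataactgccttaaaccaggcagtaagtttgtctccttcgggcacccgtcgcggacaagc
The Vps4a stretch (chr8:107031019-107031221, plus strand) held 5 GC boxes in 203 bases, with 72.4% G or C and 17 CpG. Neither the Vps4b stretch (chr1:106796729-106796975, minus strand, 43.3% G or C) nor the Vta1 stretch (chr10:14705561-14705739, minus strand, 45.8% G or C) held any of the 6 motifs. Vta1 was called and Vps4b overlapped, and a link between these motifs and the levels was not tested. RefSeq windows were found for 30 of the 42 members (34 windows, as some genes have several starts). In 28 of these windows the bases after the start matched an annotated transcript of the gene, and all 34 were counted. Of the 34, 17 held a GC box, 6 a CCAAT box, 5 an E-box, 3 a CLEAR element, 2 an NRF1 match and 2 an ETS match. Genes with several windows can count more than once. The CLEAR windows were 1 of Pdcd6ip and 2 overlapping windows of Vps26a, which both also held an E-box and a GC box. Both overlapping windows of Washc1 held a GC box. Over all windows the shares were 32.7% for the GC box, 33.8% for the CCAAT box, 6.02% for the E-box, 1.85% for CLEAR, 2.26% for NRF1 and 2.88% for ETS. The member windows held a median of 17.5 CpG, against 6 over all windows, and the part of this in the shares was not tested. Vps28 and Snf8 had no window in this table.

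In the retromer core, the trimer that gathers receptors for return from endosomes, 3 of 4 genes were higher in every KO sample (75%, beside 13.3% of all tested genes), and none passed an adjusted p of 0.05. Vps35, the scaffold of the trimer and a gene mutated in familial Parkinson disease, was at 80.2, 71.0 and 62.4 TPM in WT and 82.3, 88.9 and 84.7 TPM in KO (log2 fold change 0.26, SE 0.11, adjusted p = 0.107, limma). Vps29, which binds the end of Vps35, was at 35.0, 33.3 and 29.0 TPM in WT and 37.6, 42.3 and 40.4 TPM in KO (0.30, SE 0.11, adjusted p = 0.0652). Vps26a, an arrestin-like subunit, was at 84.3, 68.2 and 62.5 TPM in WT and 86.5, 90.9 and 92.8 TPM in KO (0.34, SE 0.12, adjusted p = 0.0648). WT 4 was the closest WT sample to the KO group in all of these.

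The paralog Vps26b was at 40.9, 41.1 and 36.9 TPM in WT and 34.1, 38.0 and 36.0 TPM in KO and overlapped (log2 fold change -0.13, adjusted p = 0.351). The summed TPM of the retromer core was 240.3, 213.6 and 190.9 in WT and 240.6, 260.2 and 254.0 in KO, so that the groups were separated, narrowly, between WT 4 and KO 3. With median-of-ratios scaling the log2 fold changes of Vps35, Vps29 and Vps26a were 0.35, 0.39 and 0.42 (adjusted p = 0.00696, 0.00159 and 0.00958), still inside the fold threshold. Vps29 and Vps35 share 340 and 171 exon bases with genes on the opposite strand.

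The sorting nexins were split. Snx1 and Snx2 pair with Snx5 and Snx6 to form tubules that carry receptors away from endosomes. Snx1 was at 30.3, 34.0 and 30.0 TPM in WT and 20.1, 25.4 and 24.5 TPM in KO, lower in every KO sample and inside the fold threshold (log2 fold change -0.42, SE 0.12, adjusted p = 0.0273, limma). Its paralog Snx2 was at 107.0, 108.6 and 96.6 TPM in WT and 95.2, 105.7 and 113.0 TPM in KO, with a log2 fold change of 0.01 (adjusted p = 0.975) whose sign turned when WT 8, KO 7 or KO 10 was left out. Snx6 was higher in every KO sample, at 76.2, 64.8 and 62.8 TPM in WT and 77.4, 83.5 and 80.7 TPM in KO (0.25, adjusted p = 0.11), and Snx5 overlapped with means of 116.1 ± 13.4 and 127.7 ± 11.6 TPM (0.14, adjusted p = 0.411).

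Snx3, which recruits retromer to early endosomes, had the highest level per length of the 40 tested members. It was at 237.1, 248.3 and 231.3 TPM in WT and 249.4, 278.9 and 254.8 TPM in KO, higher in every KO sample by a log2 fold change of 0.13 that did not pass the test (adjusted p = 0.338). Snx27, the PDZ-domain adaptor for recycling of surface receptors, was at 31.9, 27.4 and 25.2 TPM in WT and 21.1, 25.7 and 21.6 TPM in KO (-0.29, adjusted p = 0.114), with overlap through KO 7 and WT 8.

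The 3 WASH members had fold changes above 0, beside 42.6% of all tested genes, without a call. Washc5 (strumpellin) was at 87.0, 79.5 and 72.7 TPM in WT and 90.6, 98.6 and 93.2 TPM in KO, higher in every KO sample (log2 fold change 0.24, SE 0.10, adjusted p = 0.107, limma). Washc1, the subunit that activates actin nucleation, and Washc4 overlapped, with log2 fold changes of 0.08 and 0.10 (adjusted p = 0.591 and 0.548). The summed TPM of these 3 members was 149.9, 144.2 and 129.2 in WT and 150.5, 170.4 and 158.9 in KO, separated narrowly between WT 4 and KO 3. Washc2 and Washc3 are not in this sum, and the sum with both included was not computed. Washc3 was called lower (log2 fold change -1.19).

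**Figure D3:**
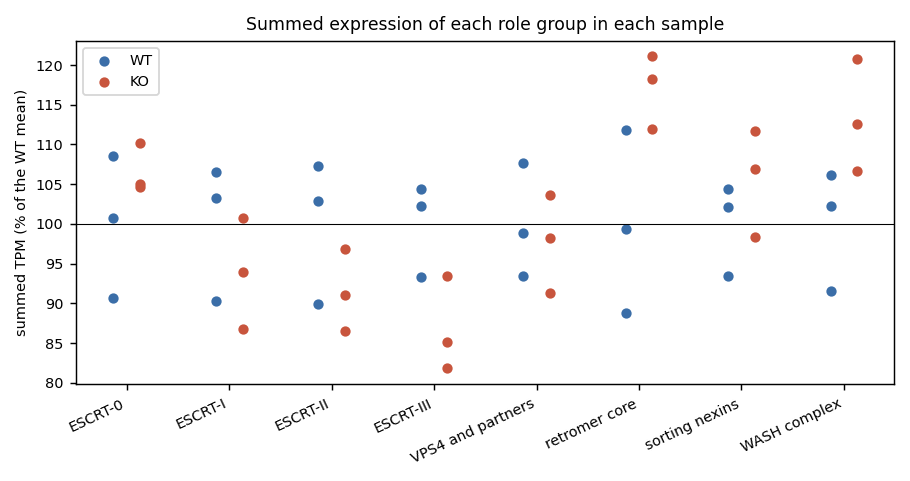
Summed TPM of the listed members of each complex in every sample as a percentage of the WT mean, with WT in blue and KO in red. The 3 KO samples lie above the 3 WT samples for the retromer core (112.0% to 121.1% against 88.8% to 111.8%). They do so too for the WASH members summed here (106.7% to 120.8% against 91.6% to 106.2%). Both gaps are narrow, between WT 4 and KO 3. Washc2 and Washc3 are not in the WASH sum, and Washc3 was called lower. The groups overlap for the other complexes.

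The ratio of paralogs within a sample was compared for 12 pairs, which removes any scaling of the whole sample. The KO and WT samples did not overlap in 9 of the 12 pairs. As single genes, 43.2% of all tested genes had groups that did not overlap; the share over gene pairs at large was not computed, and the pairs are not independent, since Vps37a, Vps37b and Vps37c alone make 3 of them. This count is therefore no result about paralogs. Each of the 9 had an exact two-sided permutation p = 0.1, the smallest the design allows (0.133 after adjustment over the 12 pairs). No pair could therefore pass 0.05. The difference of the log2 ratio, KO minus WT, was 0.65 for Stam to Stam2, 0.63 for Mvb12a to Mvb12b, 0.48 for Vps26a to Vps26b, 0.41 for Chmp2a to Chmp2b and 0.36 for Chmp1a to Chmp1b. It was -0.47 for Vps37a to Vps37b, -0.44 for Snx1 to Snx2, -0.40 for Vps4a to Vps4b and -0.30 for Vps37a to Vps37c. For Vps37b to Vps37c, Chmp4b to Chmp4c and Snx5 to Snx6 the groups overlapped (exact p = 0.2). Near-identical copies could share reads, and how such reads were counted was not stated.

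**Figure D4:**
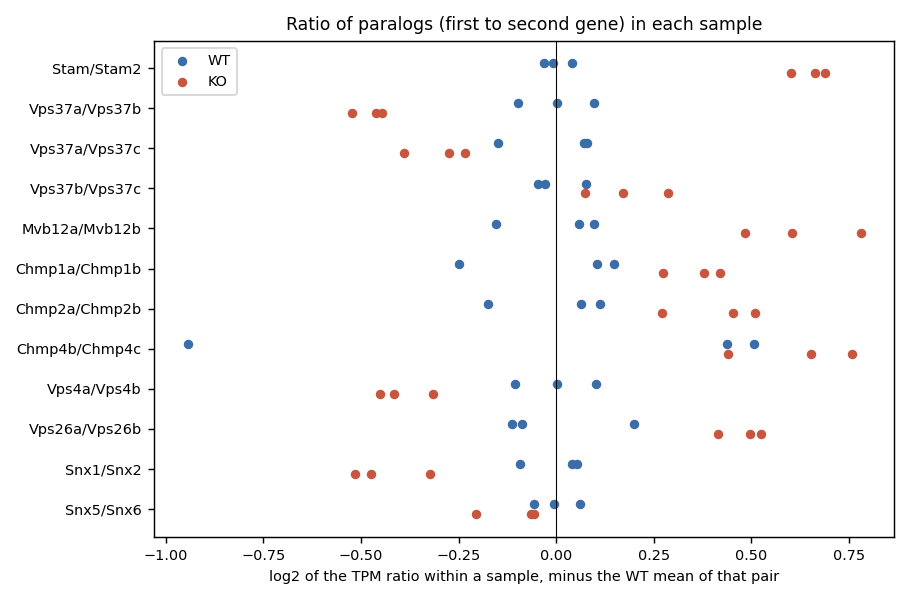
Log2 ratio of 2 paralogs within each sample, set to 0 at the WT mean of the pair, with WT in blue and KO in red. For Stam to Stam2 the KO samples lie 0.65 above WT on average, for Vps37a to Vps37b 0.47 below, and the widest WT spread is that of Chmp4b to Chmp4c (SD 0.82).

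The other genes of endosomal sorting were read from a list of 100 names, of which 94 were tested. Of these, 8 were called lower (8.51%, beside 9.03% of all tested genes). Their median log2 fold change was -0.14, against -0.08 for the members described above. Among the WASH subunits outside the list of 42, Washc3 was at 7.73, 8.50 and 8.62 TPM in WT and 2.67, 3.85 and 2.79 TPM in KO (log2 fold change -1.19, adjusted p = 0.000629, limma) and was called lower. Washc2, the remaining WASH subunit, overlapped between groups, at 32.2, 30.5 and 26.0 TPM in WT and 29.0, 32.5 and 30.0 TPM in KO (0.05, adjusted p = 0.788). Of 13 tested genes of retriever and the CCC complex, which recycle receptors independently of retromer, 11 had a fold change below 0 (beside 57.4% of all tested genes), 10 were lower in every KO sample (76.9%, beside 29.9%) and 1 was called. That gene was Commd4, at 19.6, 19.0 and 20.0 TPM in WT and 9.33, 10.2 and 10.3 TPM in KO (-0.91, adjusted p = 0.000445).

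Among genes that act with the ESCRT complexes, Cep55, the midbody scaffold that recruits ALIX and ESCRT-I in cytokinesis, was at 37.8, 32.8 and 28.0 TPM in WT and 12.0, 16.1 and 16.5 TPM in KO (log2 fold change -1.10, adjusted p = 0.001, limma). Cc2d1a, which binds Chmp4 proteins, was at 27.2, 29.0 and 27.9 TPM in WT and 11.6, 14.7 and 13.4 TPM in KO (-1.03, adjusted p = 0.000379). Both fell in every KO sample, as did the ubiquitin adaptor Tom1l1 (-0.82, adjusted p = 0.00245), the phosphoinositide phosphatase Fig4 (-1.10, adjusted p = 0.000356) and Snx19 (-0.85, adjusted p = 0.000584). Among cargo receptors, Sort1 (sortilin), a retromer cargo, was at 14.3, 16.7 and 15.1 TPM in WT and 9.06, 10.3 and 8.29 TPM in KO (-0.68, adjusted p = 0.00326). With 1 sample left out, Tom1l1 was called in 0 of 6 fits and Sort1 in 1 of 6 (without KO 7), with adjusted p of 0.00552 to 0.00979 and 0.00489 to 0.0187. With all genes tested, Washc3, Cep55, Tom1l1 and Sort1 missed the threshold (adjusted p = 0.0063, 0.00806, 0.0135 and 0.0133).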

How the data were processed

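RNA from 6 MEF cultures (3 WT, 3 KO) was measured by RNA sequencing, and samples were grouped by their titles. The authors aligned reads to mm10 with STAR, while the submitters' processing notes list Bowtie 0.12.2. The counting program and its use of strand were not given in the sources used here. The authors deposited TPM per gene and sample. The log2 fold changes and adjusted p-values of the comparison that the authors deposited beside them were not used.

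TPM values multiplied by merged exon lengths of GENCODE M21 gave whole multiples of 1 read for 100.0% of values at a tolerance of 0.05. These recovered reads give depth (17655495 to 27718259 per sample) and an alternative fit. Log2(TPM + 1) was fitted with limma 3.58.1 in R 4.3.3 with a variance trend, over the genes whose WT or KO mean reached 1 TPM. Fold changes on this scale understate those of low genes. p-values were adjusted over all 14799 genes by Benjamini-Hochberg, and called below 0.005 with a log2 fold change beyond 0.5. The study used these thresholds with DESeq2, which was not run here. Across all genes 242 were called higher and 1337 lower, so 84.7% of calls were lower (77.2% with median-of-ratios scaling and 73.7% with voom). The rule for named genes took Kansl1, members called or near a threshold, those with the highest level, rise or fall in each complex, members under the filter, and the genes called lower on the wider list (1 result of that list is not reported here); the other members, and Washc2, were also named, with their values known, so that every member is accounted for. Paralog ratios were compared by exact permutation. Alternatives were a pseudocount of 0.1, no filter, a mean of at least 10 TPM, other scaling, an adjusted p of 0.05, no variance trend, voom and each sample left out. The members were listed by complex, with no measured value in the rule, but they and the other lists were chosen with earlier results of these data known. The labels gave no batch.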

Additional observations from a re-analysis of the deposited data

How the results depend on the processing

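The number of members called lower was 4, and it was 1 when all genes were tested without the filter, where the adjusted p of Mvb12b, Snf8 and Vta1 was 0.0121, 0.00759 and 0.00892. That fit also re-estimates the variance over more genes, and the cause was not tested. With 1 sample left out, the number called, and the number called lower, ranged from 1 to 4, with fewer samples in each fit, and the number called higher stayed at 0. Over all genes past the filter, those fits called 617 (without WT 5) to 938 (without KO 7) lower, in place of 1337. They called 84 (without KO 7) to 252 (without WT 4) higher, in place of 242. The number called higher was 1 (Stam) with median-of-ratios scaling and 1 (Stam) with voom, and the cause was not tested. Vps37a turned to 0.007 with voom, and Vps4b to 0.028 with median-of-ratios scaling and 0.043 with voom. With 1 sample left out, Tsg101 ranged from -0.090 to 0.101, Ubap1 from -0.040 to 0.083 and Snx2 from -0.052 to 0.071. With a mean of at least 10 TPM, and at an adjusted p of 0.05, Chmp1b and Chmp2b were also called. Over the fold changes of Kansl1 and the 40 tested members in fits of all samples, 274 values kept their direction and side of the threshold, 3 lost the call, 6 gained it and 3 reversed; with 1 sample left out, 228 kept both, 11 lost the call and 7 reversed. With all genes tested, 341 genes were called in place of 1579. No paired analysis was possible because no replicate number occurs in both groups. Members with few reads, such as Chmp4c and Vps25, have the least precise values, and 3 samples per group limit every test.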
